A study of Mus musculus with 2 samples.

Results

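LGE-type *Meis2* *Pbx3* GABAergic neurons were cells of embryonic mouse brain tissue, dissected as cortex, whose RNA combined the GABA-synthesising enzymes *Gad1* and *Gad2* with the homeodomain factors *Meis2* and *Pbx3*. They were chosen from raw UMI counts (unique molecular identifiers, 1 for each captured RNA molecule) among barcodes in which no fewer than 1000 genes were detected and mitochondrial RNA made up 10% of the counts or less. A member needed a sum of at least 2 UMIs for *Gad1* and *Gad2*, at least 2 for *Meis2* and at least 2 for *Pbx3*. It could hold at most 1 UMI for *Nr2f2* and *Prox1* together, none for *Lhx6*, at most 2 for *Nxph1*, at most 3 for *Neurod2* and *Neurod6* together and at most 1 for *Mki67* and *Top2a* together. In all, 423 of 22347 kept barcodes met this rule. The levels of these 12 genes are therefore a description of the choice, and they were left out of every test.

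The lateral ganglionic eminence (LGE) is a germinal zone under the developing cortex that makes GABAergic neurons. Its ventral side supplies the projection neurons of the striatum, and its dorsal side supplies neurons that travel to the olfactory bulb and to the amygdala. The interneurons of the cortex come mostly from the neighbouring medial and caudal eminences (MGE and CGE).

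The libraries came from 2 embryos of embryonic day 16.5, 1 library each, both labelled WT and described as control animals of an Eomes-Cre mouse line. The sample titles name the line EoMltt3, and the mice were of the C57BL/6J strain. Cortex was dissociated with papain and sequenced with the 10x Genomics 3′ chemistry, while the tissue label reads Brain hemispheres. How much tissue next to the cortex was taken along is not known, and its part in the number and kind of members was not tested. There was a single condition, so no treatment or genotype was compared, and the embryos are called 4 and 5 after their titles.

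Embryo 4 gave 124318613 UMIs over 12825 barcodes, of which 10879 were kept, with a median of 10329 UMIs. Embryo 5 gave 117679925 UMIs over 12289 barcodes, of which 11468 were kept, with a median of 9199 UMIs. The libraries shared 46 barcode sequences, and no member was among them. Members numbered 167 in embryo 4, or 1.54% of kept barcodes (95% interval 1.31 to 1.78%). They numbered 256 in embryo 5, or 2.23% (1.97 to 2.52%). The intervals cover counting error only and did not overlap, and with 1 library per embryo the difference was not tested. Members made up 9.61% of the barcodes that passed the *Gad1* and *Gad2* step in embryo 4 (167 of 1738) and 15.3% in embryo 5 (256 of 1671).

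Members were shallower than excitatory neurons and MGE-type cells. Their median was 6466 UMIs and 2848 detected genes in embryo 4, and 5820 UMIs and 2514.5 genes in embryo 5. Excitatory neurons, defined by at least 4 UMIs of *Neurod2* and *Neurod6*, had medians of 11140 and 9689 UMIs. Summed over members, the libraries held 1194502 UMIs in embryo 4 and 1570353 in embryo 5. These sums, with each library scaled to the same total (CPM, the usual count scale), are the levels given for each embryo.

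The rule genes had the levels that the choice imposed. *Meis2* reached 4793 CPM in embryo 4 and 5465 CPM in embryo 5, and *Pbx3* reached 2866 and 3295 CPM. *Meis2* was not limited to these cells, since excitatory neurons held 1474 and 1512 CPM of it and radial glia 2177 and 2357 CPM. Radial glia were defined by at least 4 UMIs of *Vim* and at least 2 of *Hes1*, *Hes5* and *Slc1a3* together. They had at most 1 UMI of *Neurod2* and *Neurod6* and none of *Gad1* or *Gad2*. *Pbx3* stood at 60.5 and 57.8 CPM in excitatory neurons. Members held 421 and 409 CPM of *Gad1* and 739 and 860 CPM of *Gad2*. *Nr2f2* stood at 10.0 and 5.73 CPM and *Nxph1* at 20.9 and 11.5 CPM.

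The *Gad*, *Meis2* and *Pbx3* steps were passed by 455 barcodes in embryo 4 and 540 in embryo 5, and the later limits removed some of these and left the members. The limit on *Mki67* and *Top2a* alone removed 55 and 92, that on *Neurod2* and *Neurod6* alone removed 34 and 35, and that on *Nr2f2* and *Prox1* alone removed 29 and 21. Just inside the threshold stood 14 and 31 members whose *Meis2* or *Pbx3* count was exactly 2. Just outside stood 38 and 31 barcodes with a count of 1 for one of these genes that met every other step. The cells just inside summed to 738 and 816 CPM of *Zfhx3*, a gene the rule did not use, and those just outside to 501 and 791 CPM. *Foxp2* stood at 1118 and 313 CPM just inside and at 567 and 827 CPM just outside. The cells on both sides of the threshold thus overlapped in this pair of genes. *Tshz1* did not overlap, at 44.7 and 47.7 CPM just inside and 81.6 and 89.0 CPM just outside. *Ebf1* changed sides between the embryos, at 805 and 5.30 CPM just inside and 11.7 and 1733 CPM just outside. No test was made.

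The members were compared with the GABAergic classes most like them, to ask which genes set LGE-type cells apart among the GABAergic neurons of this tissue. Mirrored rules gave 330 and 291 MGE-type cells, which carried *Lhx6*, with median depths of 8027 and 6929 UMIs. They gave 129 and 103 CGE-type cells, which carried *Nr2f2* or *Prox1*, with median depths of 5303 and 6896 UMIs. The joint difference is the log2 level in members minus the mean of the other classes. Of 10531 genes tested, 557 were higher in members at an adjusted p under 0.05 (5.29% of genes tested) and 380 were lower (3.61%). Against MGE-type cells alone, 682 were higher (6.48%) and 602 lower (5.72%). Against CGE-type cells alone, 337 were higher (3.20%) and 245 lower (2.33%). All of these comparisons share the sums of the members.

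*Zfhx3* and *Grm8* were not part of the rule, and both were higher in members. They were listed as markers of these cells with earlier results of these data known, so their tests are not independent of that choice. *Zfhx3*, a large zinc finger and homeodomain factor, stood at 681 CPM in embryo 4 and 643 CPM in embryo 5. It stood at 33.5 and 15.1 CPM in MGE-type cells and at 168 and 38.1 CPM in CGE-type cells. Both embryos were thus far higher in members than in either class, with a joint log2 difference of 3.67 (SE 0.326, adjusted p 2.54e-05). *Grm8*, a metabotropic glutamate receptor that lowers transmitter release, stood at 414 and 341 CPM in members, at 16.9 and 5.03 CPM in MGE-type cells and at 22.9 and 24.0 CPM in CGE-type cells. The classes did not overlap in either embryo, and the joint log2 difference was 4.49 (SE 0.231, adjusted p 9.80e-07). *Grm8* lies at chr6:27275121-28135146 and *Zfhx3* at chr8:108279311-108961636 (GRCm38, RefSeq).

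At least 1 UMI of *Zfhx3* was found in 67.7% of members in embryo 4 and 68.4% in embryo 5. It was found in 7.88% and 2.41% of MGE-type cells, which had the greater median depth, and in 13.2% and 11.7% of CGE-type cells. *Grm8* was found in 31.1% and 21.9% of members, in 6.06% and 1.03% of MGE-type cells and in 5.43% and 5.83% of CGE-type cells. After every cell was thinned to 3000 UMIs, *Zfhx3* was seen in 52.1% and 57.8% of members, in 5.64% and 1.74% of MGE-type cells and in 11.2% and 7.29% of CGE-type cells. *Grm8* was then seen in 27.5% and 19.7% of members, in 2.19% and 1.05% of MGE-type cells and in 5.61% and 6.25% of CGE-type cells. Thinning left out 25 and 38 shallower members, 11 and 4 MGE-type cells and 22 and 7 CGE-type cells. The share was thus larger in members than in both classes at equal depth, and most members had no *Grm8* UMI.

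**Figure D1:**
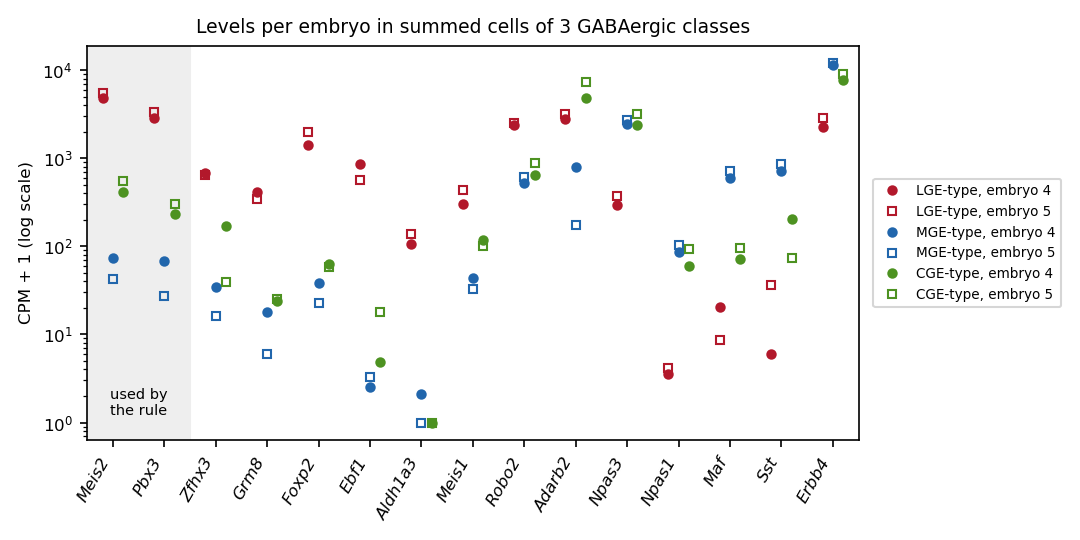
Summed levels of single genes in LGE-type, MGE-type and CGE-type cells, 1 point per embryo and class, as CPM plus 1 on a log axis. *Meis2* and *Pbx3* chose the cells. *Zfhx3*, *Grm8*, *Foxp2*, *Ebf1* and *Aldh1a3* stand higher in LGE-type cells than in both other classes in each embryo, while *Npas1*, *Maf*, *Sst* and *Erbb4* stand lower.

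Genes of the striatal lineage were among those with the largest differences. *Ebf1*, a helix-loop-helix factor of striatal neurons that project directly to the midbrain, stood at 861 and 557 CPM in members. It stood at 1.51 and 2.29 CPM in MGE-type cells and at 3.81 and 17.0 CPM in CGE-type cells, a joint log2 difference of 7.28 (SE 0.282, adjusted p 1.82e-07). *Ebf1* was high in members of both embryos and near 0 in both other classes, yet its UMIs came from few members, 15.6% in embryo 4 and 11.3% in embryo 5. MGE-type cells with a UMI of *Ebf1* made up 0.909% and 1.37%. *Foxp2*, a forkhead factor, stood at 1408 and 1956 CPM in members against 36.9 and 22.0 CPM in MGE-type and 62.2 and 56.5 CPM in CGE-type cells. Its joint log2 difference was 5.30 (SE 0.191, adjusted p 1.71e-07), and 68.9% and 72.3% of members held a UMI, against 15.2% and 7.56% of MGE-type cells. *Foxp2* was thus spread over most members where *Ebf1* was concentrated in a minority.

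Of 20 striatal projection neuron genes, 12 had enough counts to be tested and 10 were higher in members, with a median joint log2 difference of 3.59 beside 0.00 over all genes tested. The count filter kept a gene with enough counts in 1 class alone. *Zfp503* and *Rxrg* thus entered through the members, with 0 counts in MGE-type cells and 1 and 2 in CGE-type cells. The number called and the median therefore lean towards genes high in members, and the same filter held for every list. *Isl1*, a LIM homeodomain factor, stood at 139 and 99.3 CPM in members, against 3.39 and 1.83 CPM in MGE-type and 35.6 and 28.3 CPM in CGE-type cells (joint log2 difference 3.62, SE 0.214, adjusted p 1.76e-06). *Zfp503*, a zinc finger repressor, stood at 47.7 and 52.2 CPM in members and was at 0 in MGE-type cells of both embryos. Over both embryos together it was at least 81.2-fold higher in members than the level that 3 counts would give in MGE-type cells. *Bcl11b*, a zinc finger factor shared by striatal and deep cortical projection neurons, stood at 580 and 709 CPM against 311 to 500 CPM in the other classes, with a joint log2 difference of 0.63 (SE 0.122, adjusted p 0.00665). Against MGE-type cells alone *Bcl11b* did not pass (0.32, adjusted p 0.197). *Adcy5* and *Pde10a*, enzymes of cyclic nucleotide signalling, stood at 18.4 and 13.4 CPM and at 197 and 187 CPM in members, with adjusted p-values of 0.121 and 0.918.

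Of the striatal list, 8 genes had too few counts to be tested, dopamine receptors among them. The dopamine receptor *Drd1* stood at 1.67 and 4.46 CPM, in 1.20% and 2.73% of members, and the dopamine receptor *Drd2* at 14.2 and 5.09 CPM. The opioid peptide gene *Penk* stood at 7.53 and 1.91 CPM, and the phosphatase inhibitor *Ppp1r1b* was not detected in embryo 4 and stood at 1.27 CPM in embryo 5. The peptide gene *Tac1*, which marks direct-pathway neurons, was tested and stood at 68.6 and 19.1 CPM in members, from UMIs in only 5.39% and 2.73% of them. It stood at 6.02 and 3.20 CPM in MGE-type cells and at 0 in CGE-type cells, which put it at least 20.2-fold higher than 3 counts over both CGE-type sums.

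Genes of the dorsal LGE and its path to the olfactory bulb were also higher. Of 10 such genes, 6 were tested and 5 were higher, with a median joint log2 difference of 2.55 beside 0.00 over all genes. *Tshz1*, a zinc finger factor of olfactory bulb and amygdala neurons, stood at 311 and 374 CPM in members, at 53.1 and 51.2 CPM in MGE-type cells and at 58.4 and 60.8 CPM in CGE-type cells. Both embryos were high in members alone (joint log2 difference 2.59, SE 0.126, adjusted p 7.15e-07). The zinc finger factor *Sp8* and the paired factor *Pax6* behaved otherwise, since CGE-type cells held them as well. *Sp8* stood at 68.6 and 59.9 CPM in members, at 1.13 and 0.915 CPM in MGE-type cells and at 78.7 and 87.6 CPM in CGE-type cells. Its log2 difference was 5.79 against MGE-type cells (SE 0.311, adjusted p 5.67e-07) and −0.37 against CGE-type cells (SE 0.181, adjusted p 0.362). *Pax6* stood at 106 and 84.7 CPM in members, 4.89 and 2.29 CPM in MGE-type and 88.9 and 94.7 CPM in CGE-type cells. The joint difference of both genes therefore rests on the MGE-type cells. *Th*, the dopamine-synthesising enzyme of some bulb neurons, was seen in 2.40% and 4.30% of members.

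Several transcription factor families were tested beside these lists. The TALE homeobox family holds *Meis2* and *Pbx3*, and of 9 other members 7 were tested and 2 were higher, with a median joint log2 difference of 0.36 beside 0.00. One of them was *Meis1*, at 299 and 436 CPM in members against 31.6 to 118 CPM in the other classes (log2 difference 2.51, SE 0.170, adjusted p 3.51e-06), which was thus higher in each embryo than in both classes. Of 10 Zfhx, Tshz and Sall zinc finger genes, 9 were tested and 5 were higher, with a median of 1.76. *Zfhx4* stood at 440 and 584 CPM against 9.60 to 110 CPM, and *Tshz3* at 68.6 and 89.8 CPM against 328 and 418 CPM in MGE-type and 26.7 and 22.6 CPM in CGE-type cells. *Tshz3* was thus lower than in MGE-type cells (log2 difference −2.28, adjusted p 6.22e-06) and higher than in CGE-type cells (1.70, adjusted p 0.00303). Of the 5 Zic genes, which pattern the septum and the dorsal midline, all were tested and 4 were higher, with a median of 1.96, and against CGE-type cells alone 2 were higher. The call of *Zic2* was lost with the DESeq2 Wald test, with at least 3 UMIs of *Meis2* and of *Pbx3*, without members with *Neurod* UMIs and without doublets. *Zic1* stood at 248 and 187 CPM against 8.23 to 77.7 CPM.

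Retinoic acid, a vitamin A derivative that acts through nuclear receptors, is made and read by cells of the LGE. Of 15 genes of its pathway, 8 were tested and 4 were higher in members, with a median joint log2 difference of 0.77 beside 0.00. *Aldh1a3*, an enzyme that makes retinoic acid, ranked first of the named genes by its fitted joint difference, a rank that the counts alone do not fix because CGE-type cells were at 0. It stood at 104 and 135 CPM in members, at 1.13 CPM and 0 in MGE-type cells, and at 0 in CGE-type cells of both embryos. Against 3 counts in MGE-type cells the ratio was 196 (95% counting interval 66.5 to 956), and against CGE-type cells it was at least 60.6-fold higher, with 3 counts over both sums as the floor. A UMI of *Aldh1a3* was found in 17.4% and 17.2% of members, and in 0.395% and 0.234% of the deeper excitatory neurons. *Rarb*, a receptor for retinoic acid, stood at 116 and 132 CPM against 8.48 to 12.7 CPM (3.54, SE 0.178, adjusted p 8.76e-07).

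The 10 named genes with the largest differences were drawn from 302 that were higher and met the naming rule. Besides *Aldh1a3*, *Ebf1*, *Foxp2*, *Grm8* and *Zfhx3* they held *Foxp4*, a forkhead partner of *Foxp2*, at 152 and 195 CPM against 4.12 to 11.3 CPM (log2 difference 4.54, adjusted p 9.91e-07). The bicarbonate transporter *Slc4a4* stood at 102 and 141 CPM against 1.88 to 11.3 CPM (4.52, adjusted p 9.91e-07). The calcium-binding copine *Cpne4* stood at 134 and 110 CPM against 2.83 to 7.62 CPM (4.43, adjusted p 1.66e-06). A second copine, *Cpne5*, stood at 74.5 and 49.0 CPM, with 2 counts in CGE-type cells and a ratio to them of 44.9 (95% counting interval 12.2 to 374). *C79798*, known only as a transcribed locus, stood at 166 and 123 CPM against 1.37 to 8.89 CPM (5.01, adjusted p 7.15e-07). Each of these was higher in members than in both other classes in each embryo.

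On the lower side, 215 genes met the naming rule. *Dgkg*, a diacylglycerol kinase, stood at 3.35 and 0.637 CPM in members, at 256 and 321 CPM in MGE-type cells and at 35.6 and 57.9 CPM in CGE-type cells (joint log2 difference −5.96, SE 0.420, adjusted p 4.32e-06). *Npas1*, a factor of cortical interneurons and of the globus pallidus, stood at 2.51 and 3.18 CPM in members against 58.4 to 103 CPM in the other classes (−4.84, SE 0.353, adjusted p 5.73e-06). *Zbtb16*, a zinc finger repressor, stood at 3.35 and 10.2 CPM against 127 to 216 CPM (−4.48, SE 0.355, adjusted p 1.17e-05). These 3 genes were near 0 in members of both embryos and present in both other classes. The others included *Maf* (−4.20), *Npy* (−4.03), *Sst* (−3.93), *Neb* (−3.71), *Cntnap5c* (−3.64) and *Galnt14* (−3.46), each lower in both embryos against both classes. The call of the peptide gene *Npy* was lost when the mitochondrial limit was set at 5% (log2 difference −2.86, adjusted p 0.0720, the highest of its alternatives, which reached down to 9.80e-25).

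Of 10 MGE genes beyond the rule, 9 were tested and 8 were lower, with a median joint log2 difference of −3.20 beside 0.00. Their summed level was 611 CPM in members of embryo 4 and 527 CPM in embryo 5, against 5783 and 6410 CPM in MGE-type and 1266 and 1249 CPM in CGE-type cells. Against CGE-type cells alone 5 were lower, with a median of −1.62. *Sox6* was the most abundant in embryo 4 at 258 CPM and *Mef2c* in embryo 5 at 231 CPM, while *Nkx2-1* and *Lhx8*, which define the MGE itself, were at 0 in embryo 5. The peptide gene *Sst* stood at 5.02 and 35.7 CPM in members and at 712 and 856 CPM in MGE-type cells.

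CGE genes did not move together. Of 10, 9 were tested, 5 were lower and 1 was higher, with a median of −1.78. The summed level was 3524 and 3869 CPM in members against 8532 and 11847 CPM in CGE-type cells, and *Vip* was at 0 in members of both embryos. Most of the sum came from *Adarb2*, an RNA-editing family protein widely used to mark CGE interneurons. *Adarb2* stood at 2807 and 3157 CPM in members, at 790 and 175 CPM in MGE-type cells and at 4788 and 7243 CPM in CGE-type cells. It was higher than in MGE-type cells (log2 difference 2.57, SE 0.501, adjusted p 0.00529), and the difference from CGE-type cells did not pass (−1.02, SE 0.475, adjusted p 0.334). A UMI of *Adarb2* was found in 76.6% and 75.8% of members and in 18.8% and 5.84% of MGE-type cells. *Npas3*, a factor of interneurons, stood at 290 and 367 CPM against 2395 to 3166 CPM in the other classes (−3.05, SE 0.190, adjusted p 2.15e-06). *Synpr*, a synaptic vesicle protein, stood at 88.7 and 104 CPM in members, 5.65 and 2.29 CPM in MGE-type and 53.3 and 109 CPM in CGE-type cells.

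The pan-GABAergic genes are a description and not a check of the label. All GABAergic classes were chosen by UMIs of *Gad1* and *Gad2*, and excitatory neurons by their absence. All 10 genes of this list were tested, 3 were lower, and the median was −0.22. Their sum was 2369 and 2585 CPM in members, 2348 and 2150 CPM in MGE-type and 3781 and 4106 CPM in CGE-type cells, while excitatory neurons held 25.1 and 22.0 CPM. *Dlx6os1*, a long noncoding RNA of the Dlx locus, led with 1140 and 1509 CPM. The vesicular GABA transporter *Slc32a1* stood at 69.5 and 50.9 CPM (−0.27, adjusted p 0.439).

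Genes of cells that are not GABAergic were summed as well. Excitatory genes beyond the rule reached 162 and 108 CPM in members, 39.2 and 22.4 CPM in MGE-type cells, 95.2 and 109 CPM in CGE-type cells and 1596 and 1678 CPM in excitatory neurons. Of 11 such genes, 7 were tested and 2 were higher in members, with a median of 1.40. One of these was *Slc17a6*, a vesicular glutamate transporter at 19.3 and 14.0 CPM (adjusted p 0.0107). Its call was lost when members with any *Neurod2* or *Neurod6* UMI were left out, which kept 128 and 212 members, when doublets were left out, and with the DESeq2 Wald test. Without the members with *Neurod* UMIs its adjusted p was 0.313, over a range from 1.38e-05 to 0.313 for all alternatives. Doublet scores marked 11 and 7 members. The part of RNA from other cells in these genes was not tested.

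Radial glia genes summed to 611 and 485 CPM in members against 6724 and 6328 CPM in radial glia. The second pair is in part imposed, since *Vim*, *Hes1*, *Hes5* and *Slc1a3* are in the list and also chose the radial glia. The most abundant in members were *Fabp7* in embryo 4 at 251 CPM and *Sox2* in embryo 5 at 163 CPM. Of 8, 7 were tested and 1 was higher, *Sox9*, with a median of 0.43, and that call was lost under 5 alternatives, with adjusted p-values from 0.00125 to 0.278 over all of them. Of 4 oligodendrocyte lineage genes and 4 microglial genes, none had enough counts to be tested. The former summed to 0.837 and 0.637 CPM, all from *Olig2*, with *Olig1*, *Pdgfra* and *Cspg4* at 0. The latter summed to 18.4 and 10.8 CPM, led by *P2ry12*, with *C1qa* and *C1qb* at 0 in embryo 4. Vascular genes summed to 22.6 and 45.2 CPM, led by *Col4a1*, and 2 of 4 were tested, with adjusted p-values of 0.655 and 0.758 and a median of 0.51. Erythroid genes summed to 302 and 581 CPM, led by *Hbb-bs*, beside 971 and 495 CPM in MGE-type and 359 and 548 CPM in CGE-type cells. All 4 were tested, with adjusted p-values from 0.537 to 0.812 and a median of −0.40. Their part in the results was not tested.

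Of the listed genes called in the joint comparison, 32 lost the call under at least 1 alternative, and 6 had too few counts to be tested in at least 1. No call was lost among the striatal, CGE, TALE and retinoic acid genes where they were tested. *Tac1* of the striatal list and *Rxrg* of the striatal and retinoic acid lists were among the 6 without a test. Of the 5 olfactory, 4 Zic and 8 MGE calls 1 each was lost, and every call was lost at least once among the GABA receptor (3), excitatory (2), DNA methylation (2) and radial glia genes (1). The calls lost were 4 of 8 among guidance ligands, 3 of 6 among ionotropic glutamate receptors and 3 of 6 among cadherins. They were 2 of 4 each among metabotropic glutamate receptors and neuropeptides, and 2 of 5 among Zfhx, Tshz and Sall genes. Among guidance receptors 3 of 15 were lost, among potassium channels 2 of 9 and among pan-GABAergic genes 1 of 3. A joint call could also rest on 1 class. Among others, *Bcl11b*, *Grm7*, *Kcnd3*, *Gabra2*, *Grm4*, *Ephb2*, *Htr3a* and *Grin2d* passed against CGE-type cells alone. Their adjusted p-values against MGE-type cells ran from 0.0626 to 0.673. *Sp8*, *Pax6*, *Synpr*, *Slc17a6*, *Sox9*, *Zic2*, *Tet2*, *Npy*, *Nxph2*, *Mef2c* and *Cdh18*, among others, passed against MGE-type cells alone. The adjusted p-values of those named ran from 0.0558 to 0.945 against CGE-type cells. *Dnmt3a* passed against neither class by itself.

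**Figure D2:**
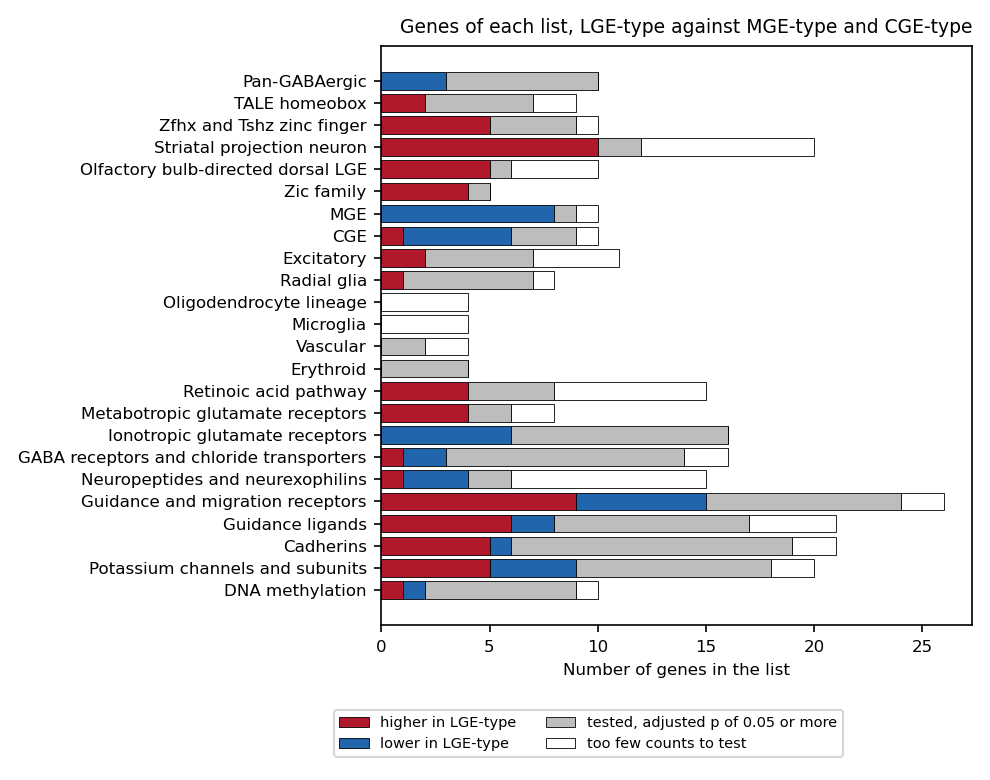
Number of genes in each list that were higher or lower in LGE-type cells than the mean of MGE-type and CGE-type cells, that did not pass, or that had too few counts to be tested. In the bars of striatal, olfactory bulb-directed and Zic genes, 10 of 20, 5 of 10 and 4 of 5 genes are higher, and in that of MGE genes 8 of 10 are lower.

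Receptors for glutamate and GABA were examined next. Of 8 metabotropic glutamate receptors, 6 were tested and 4 were higher in members, with a median of 1.10. *Grm8* had the largest difference, and *Grm7*, another receptor that lowers release, stood at 182 and 191 CPM against 45.2 to 153 CPM (1.02, SE 0.217, adjusted p 0.0113). Against MGE-type cells alone *Grm7* did not pass (0.55, adjusted p 0.171). *Grm5*, which raises intracellular calcium, stood at 200 and 79.6 CPM in members, 999.7 and 1236 CPM in MGE-type and 52.1 and 22.6 CPM in CGE-type cells. It was lower than in MGE-type cells (−3.09, adjusted p 7.17e-05) and higher than in CGE-type cells (1.86, adjusted p 0.0320). All 16 ionotropic glutamate receptor genes were tested and 6 were lower, with a median of −0.08. *Gria4*, an AMPA receptor subunit, stood at 198 and 153 CPM in members against 2369 and 2540.4 CPM in MGE-type and 444 and 365 CPM in CGE-type cells (−2.54, SE 0.152, adjusted p 1.97e-06). Of 16 GABA receptor and chloride transporter genes, 14 were tested, 1 was higher and 2 were lower, with a median of −0.03.

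Of 15 genes of neuropeptides and neurexophilins, a family of secreted synaptic ligands, 6 were tested, with *Tac1* higher and 3 lower, and a median of −3.56. Their sum was 122 and 106 CPM in members, 1330 and 1589 CPM in MGE-type cells and 241 and 106 CPM in CGE-type cells, so that the members were far lower than MGE-type cells alone. The lower call of the neurexophilin *Nxph2* was lost with at least 1500 detected genes, with the mitochondrial limit at 5%, with the other comparison classes and with thinned cells. Of 20 genes of potassium channels and their subunits, 18 were tested, 5 were higher and 4 lower, with a median of 0.05. *Kcnd2*, which carries a fast inactivating current, stood at 1098 and 991 CPM in members against 286 to 567 CPM (1.43, SE 0.129, adjusted p 2.81e-05). *Kcnj3*, an inward rectifier opened by G proteins, stood at 106 and 103 CPM against 6.40 to 20.3 CPM (3.16, SE 0.180, adjusted p 1.56e-06). *Kcnc2*, a channel of fast-firing interneurons, stood at 40.2 and 35.7 CPM in members, 570 and 524 CPM in MGE-type and 63.5 and 119 CPM in CGE-type cells (−2.59, SE 0.229, adjusted p 2.45e-05). Members thus held more of the first pair of channels and less of the last in each embryo.

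Guidance receptors divided. Of 26 guidance and migration receptors, 24 were tested, 9 were higher and 6 lower, with a median of 0.24. The Slit receptor *Robo2* stood at 2365 and 2491 CPM in members against 521 to 889 CPM (1.85, SE 0.149, adjusted p 1.30e-05), and *Robo1* at 1899 and 1499 CPM against 263 to 770 CPM (1.65, SE 0.215, adjusted p 0.000436). The ephrin receptor *Ephb1* stood at 224 and 194 CPM against 11.4 to 59.3 CPM (2.70, SE 0.179, adjusted p 3.30e-06). All 3 receptors were higher in each embryo than in both classes. *Erbb4*, the neuregulin receptor that tangentially migrating interneurons use, was lower at 2267 and 2889 CPM against 7701 to 11860.5 CPM (−1.95, SE 0.163, adjusted p 1.69e-05). The chemokine receptor *Cxcr4* was at 0 in members of both embryos. It stood at 37.3 and 35.2 CPM in MGE-type and 6.35 and 19.8 CPM in CGE-type cells, at least 33.5-fold and at least 11.7-fold higher than 3 counts over both member sums.

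Of 21 guidance ligands, 17 were tested, 6 were higher and 2 lower, with a median of 0.65. The higher calls of *Efnb1*, *Nrg1*, *Slit2* and *Slit3* were each lost under at least 1 alternative. *Sema5a*, a membrane semaphorin, stood at 202 and 188 CPM in members against 21.5 to 48.0 CPM (2.65, SE 0.151, adjusted p 1.56e-06), and *Ntn1*, the secreted netrin, at 75.3 and 52.2 CPM against 2.83 to 12.4 CPM (3.0, SE 0.346, adjusted p 0.000178). *Efnb2*, the ephrin that the study follows, stood at 214 and 285 CPM in members, 250 and 327 CPM in MGE-type and 110 and 116 CPM in CGE-type cells. Its joint difference did not pass (0.45, SE 0.162, adjusted p 0.139), and it was higher than in CGE-type cells alone (1.15, SE 0.206, adjusted p 0.00607). Of 21 cadherins, 19 were tested, 5 were higher and 1 was lower, with a median of 0.15, or 0.12 with the floor in place of the fitted value of *Cdh9*. *Pcdh9* was the most abundant at 1335 and 1404 CPM (0.15, adjusted p 0.568), and *Cdh18* stood at 109 and 43.3 CPM against 2.83 to 27.9 CPM (2.93, SE 0.456, adjusted p 0.00159).

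Of 10 DNA methylation genes, 9 were tested, 1 was higher and 1 was lower, with a median of −0.05. *Dnmt1*, the maintenance methyltransferase at the centre of the study, stood at 56.1 and 43.9 CPM in members, 53.5 and 52.1 CPM in MGE-type and 43.2 and 62.2 CPM in CGE-type cells (−0.11, SE 0.181, adjusted p 0.820). The values of the 3 classes overlapped. *Dnmt3a*, which sets new methylation, stood at 95.4 and 95.5 CPM (0.47, SE 0.123, adjusted p 0.0368), a call that was lost with the DESeq2 Wald test and 5 other alternatives, with adjusted p-values from 0.0235 to 0.671 over all of them. The lower call of *Tet2* was lost with the Wald test, without members with *Neurod* UMIs and with thinned cells.

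The members were not uniform. In each cell the UMIs of 6 striatal genes (among them *Isl1*, *Ebf1*, *Rarb*, *Drd1* and *Tac1*) and of 5 olfactory genes (*Sp8*, *Pax6*, *Tshz1*, *Prokr2* and *Vax1*) were summed. Striatal-gene members, with at least 2 UMIs of the first group and 0 of the second, numbered 27 in embryo 4 and 44 in embryo 5, or 16.2% and 17.2% of members. Olfactory-gene members, with the reverse, numbered 67 and 104, or 40.1% and 40.6%. Both names stand for the genes alone and not for a place or fate. *Tshz1* is also a factor of amygdala neurons, and CGE-type cells held *Sp8* and *Pax6* as well. At least 2 UMIs of both groups were found in 22 and 12 members, or 13.2% and 4.69%, and neither group was found in 17 and 37. The first 2 shares were alike in the embryos, and the share with both groups was larger in embryo 4. The corners of the grid were well filled, since 18 members in each embryo had 8 or more striatal UMIs and no olfactory UMI, and 22 and 27 had the reverse. Median depth was 9370 and 6983 UMIs in striatal-gene members and 6288 and 5744.5 UMIs in olfactory-gene members, and the part of depth in the split was not tested.

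**Figure D3:**
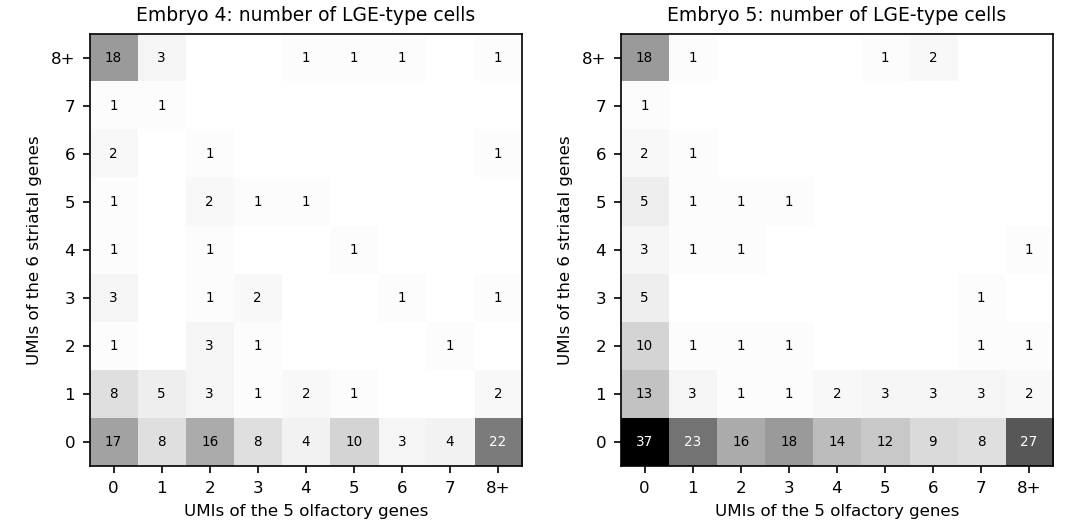
Number of LGE-type cells of each embryo by their UMIs of 6 striatal genes (vertical axis) and 5 olfactory genes (horizontal axis), with 8 or more pooled. In both embryos many cells lie along the axes, with 18 cells in the striatal corner of each and 22 and 27 in the olfactory corner.

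Pairs of genes described the same division cell by cell. *Ebf1*, *Isl1* and *Tshz1* were among the genes of the split, so their shares restate it. Among members with a UMI of *Ebf1*, *Isl1* was found in 65.4% in embryo 4 and 58.6% in embryo 5, against 17.7% and 15% of members without *Ebf1*. *Tshz1* was found in 7.69% and 10.3% of members with *Ebf1*, against 53.2% and 56.8% of those without it. Cells with *Ebf1* were the deeper ones, with median UMIs of 8173.5 and 7006 against 6112 and 5690, and the part of depth in these shares was not tested. *Foxp2* did not divide the cells in this way, since *Tshz1* was found in 52.2% and 57.3% of members with *Foxp2* and in 32.7% and 36.6% of those without.

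The sums of striatal-gene and olfactory-gene members were compared, with the 11 genes of the split left out. Of 6319 genes tested, 99 were higher in striatal-gene members (1.57%) and 127 were lower (2.01%). With the embryo as a block these counts were 177 and 197. The naming rule was met by 73 genes on the higher side and 95 on the lower side. In what follows the first pair of values is that of striatal-gene members.

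*Zfhx3* and *Grm8* fell on opposite sides of this split. *Zfhx3* stood at 1406 CPM in embryo 4 and 1624 CPM in embryo 5 in striatal-gene members, and at 204 and 211 CPM in olfactory-gene members (log2 difference 2.86, SE 0.205, adjusted p 0.000333). *Grm8* stood at 16.4 CPM and 0 in striatal-gene members and at 763 and 641 CPM in olfactory-gene members (−6.53, SE 0.514, adjusted p 0.000360). Both embryos showed both directions, without overlap. Median differences over the lists are given beside 0.02 for all genes tested.

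On the striatal side, *Mgat4c*, a glycosyltransferase-family gene, stood at 1229 and 314 CPM against 11.2 and 1.58 CPM (7.0, SE 0.832, adjusted p 0.00225). *Bnc2*, a zinc finger protein, stood at 185 and 113 CPM, and its ratio to the 2 counts in olfactory-gene members was 78.1 (95% counting interval 20.9 to 656). *Zfp503* stood at 94.6 and 146 CPM against 4.49 and 6.33 CPM (4.37, SE 0.458, adjusted p 0.00126), and *Rph3a*, a vesicle-docking protein, at 177 and 87.5 CPM against 4.49 and 6.33 CPM (4.46, SE 0.528, adjusted p 0.00223). These genes were high in striatal-gene members of both embryos. *Zfp804b* stood at 312 and 29.2 CPM against 0 in both embryos, at least 55.3-fold over 3 counts with the embryos pooled. That limit rests mostly on embryo 4. Its call was lost when at least 1 UMI sufficed for a side (log2 difference 6.22, adjusted p 0.0599, over a range from 1.29e-28).

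Of 6 genes of the striatal list tested in the split, 2 were higher, *Foxp1* and *Zfp503*, and 4 did not pass, with a median of 0.57. *Foxp1*, a forkhead factor of striatal neurons, stood at 822 and 545 CPM against 204 and 176 CPM (1.84, SE 0.244, adjusted p 0.00373). Those that did not pass were *Bcl11b* (0.88, adjusted p 0.0983), *Pde10a* (0.25, adjusted p 0.730), *Foxp2* (−0.70, adjusted p 0.300) and *Six3* (−0.81, adjusted p 0.336). *Aldh1a3* stood at 123 and 395 CPM against 29.2 and 31.7 CPM (3.1, SE 0.507, adjusted p 0.00963). *Efna5*, a membrane-anchored ephrin, stood at 617 and 561 CPM against 69.6 and 79.1 CPM (2.96, SE 0.217, adjusted p 0.000333). *Robo1* was higher on this side as well, at 3194 and 2800.5 CPM against 994 and 1182 CPM (1.45, SE 0.204, adjusted p 0.00494). Striatal-gene members thus held more of one ephrin and of one Slit receptor in each embryo.

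On the olfactory side, *Unc5c*, a repulsive netrin receptor, stood at 0 and 29.2 CPM against 694 and 1004 CPM (−5.70, SE 0.554, adjusted p 0.000885). *Frmpd4*, a synaptic scaffold protein, stood at 0 and 9.72 CPM against 256 and 320 CPM, and the ratio of olfactory-gene members to the 3 counts was 54.0 (95% counting interval 18.3 to 263). *Slc4a4* stood at 8.22 and 6.48 CPM against 193 and 204 CPM (−4.72, SE 0.378, adjusted p 0.000360). The axonal adhesion protein *Cntn4* stood at 12.3 and 6.48 CPM against 310 and 147 CPM (−4.58, SE 0.569, adjusted p 0.00257). *Slc4a4* and *Grm8*, both among the 10 genes with the largest difference from the other GABAergic classes, were thus carried by olfactory-gene members.

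*Erbb4* stood at 185 and 324 CPM in striatal-gene members and at 4204 and 5122 CPM in olfactory-gene members (−4.18, SE 0.300, adjusted p 0.000333). *Etv1*, an ETS factor of dorsal LGE neurons, stood at 8.22 and 13.0 CPM against 240 and 253 CPM (−4.47, SE 0.344, adjusted p 0.000360). *Meis1* stood at 127 and 120 CPM against 456 and 643 CPM (−2.16, SE 0.256, adjusted p 0.00223). *Meis1*, higher in members as a whole, was thus lower on the striatal side. *Adarb2* stood at 1743 and 1999.9 CPM against 4451 and 4348 CPM (−1.24, SE 0.195, adjusted p 0.00846), and neither side was without it. CGE-type cells held 4788 and 7243 CPM of *Adarb2* and 7701 and 8887 CPM of *Erbb4*. Whether olfactory-gene members include cells of CGE origin was not tested. Of 14 genes of potassium channels and their subunits tested, 4 were lower and 1 was higher, with a median of −1.11. *Kcnd3* stood at 45.2 and 32.4 CPM against 388 and 375 CPM (−3.31, SE 0.263, adjusted p 0.000360). *Foxp2* was shared, with an adjusted p of 0.300 (−0.70, SE 0.272).

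**Figure D4:**
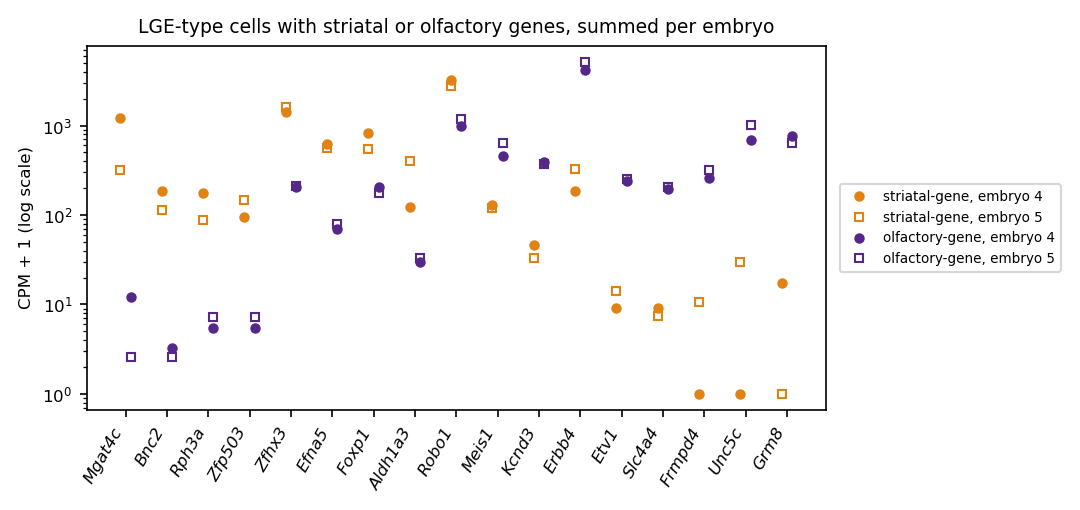
Levels of single genes in striatal-gene and olfactory-gene members, 1 point per embryo, as CPM plus 1 on a log axis. Genes from *Mgat4c* to *Robo1* stand higher in striatal-gene members of both embryos, and those from *Meis1* to *Grm8* stand higher in olfactory-gene members.

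Proteins of the Meis family recognise the DNA core TGACAG, and the promoters of the genes were searched for it on both strands, from 250 bases before to 50 after 1 RefSeq start per gene (GRCm38), which for *Zfhx3*, *Slc4a4* and *Cpne4* lay inside the gene. Of 27025 promoters, 5212 held it (19.3%), as did 16.0% of the 8210 matched to genes tested. It was found in 76 of 410 promoters matched to genes higher in members (18.5%) and in 32 of 268 matched to genes lower (11.9%). Of the 10 named higher genes, 7 had a promoter in the table and only that of *Grm8* held the letters. It is shown for that reason, from chr6:28135097-28135396 on the minus strand, with the match, here as its reverse complement, in capitals. A match is a description and says nothing about binding.
Grm8: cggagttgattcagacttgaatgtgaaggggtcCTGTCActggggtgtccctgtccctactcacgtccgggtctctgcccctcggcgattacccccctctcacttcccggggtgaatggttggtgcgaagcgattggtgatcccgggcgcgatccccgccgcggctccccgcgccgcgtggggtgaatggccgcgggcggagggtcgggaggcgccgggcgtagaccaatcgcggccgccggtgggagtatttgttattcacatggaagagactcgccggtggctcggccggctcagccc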

How the data were processed

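The authors deposited unnormalised UMI counts of 32285 genes in every barcode, made with Cell Ranger on mm10. The submitters' notes give version 7.0.0 and the matrix header 7.1.0. The members and the gene lists were chosen with earlier results of these data known. Filters removed barcodes under 1000 detected genes (1772 and 765) or above 10% mitochondrial counts (174 and 56). Doublet scores came from 2 simulated doublets per barcode, with a rate of 0.8% per 1000 barcodes (947 and 1052 marked), and were used only for an alternative (scikit-learn 1.9.0, Python 3.11.15).

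UMIs were added up for each class within each embryo, which is the replicate (n = 2). MGE-type and CGE-type cells met the same *Gad*, *Neurod* and cycling limits without reaching 2 UMIs of both *Meis2* and *Pbx3*. MGE-type cells had at least 2 UMIs of *Lhx6* and at most 1 of *Nr2f2* and *Prox1*. CGE-type cells had none of *Lhx6*, at most 2 of *Nxph1* and at least 2 of *Nr2f2* and *Prox1*. The 6 sums entered 1 fit with edgeR 4.0.16 (R 4.3.3): TMM, filterByExpr, quasi-likelihood test, Benjamini-Hochberg adjustment over all genes tested, called at 0.05. SE is the size of the log2 difference over the square root of F. The classes of an embryo share an animal. Their deviations correlated across genes at 0.133, 0.0957 and 0.141 over 10531 genes, and the embryo as a block was an alternative. The split used 4 sums in the same way. The procedure was tested on simulated data.

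Named genes were the 10 with the largest difference on each side at an adjusted p under 0.05, with the same sign in both embryos against both classes, at least 50 CPM and a symbol other than Gm, AC, AL, BC or CT with digits or ending in Rik, and 5 on each side of the split at 100 CPM. Genes of the lists, the rule genes, *Dnmt1* and *Efnb2* could also be named. Gene pairs were chosen after their values were seen. Every listed or ranked gene called in the joint comparison (111 of 227) or in the split (39 of 159) had the same direction in each embryo. Intervals of shares are exact binomial at 95%. Folds against 0 use a floor of 3 counts over both embryos' sums. Intervals and floors cover counting error only. Positions are those of RefSeq, matched by symbol for 81.6% of genes. Alternatives changed the filters, the member rule, the comparison classes, doublets, depth per cell, normalization (DESeq2 1.42.0 size factors), the test (DESeq2 Wald), the low-count filter and the block, and left out each embryo.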

Additional observations from a re-analysis of the deposited data

How the results depend on the processing

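The mean share of members was 1.88% of kept barcodes and stayed between 1.51 and 2.19% under the alternatives to filters and rule, within 1 SD (0.493). The embryos alone gave 1.54 to 2.23%. With cells thinned to 3000 UMIs, which left fewer genes to test, the joint counts were 371 higher and 253 lower, and those against MGE-type cells 423 and 400. With the DESeq2 Wald test the joint counts were 330 and 253, and the cause was not tested. In the split, no filter on low counts gave 225 higher and 261 lower and the embryo as a block 177 and 197, and the cause was not tested. Against CGE-type cells, no filter gave 598 and 396. Without a filter the fits pooled the spread over all genes completely, and the smallest adjusted p-values of several genes came from them. Every other count stayed within 1.5 times the main one.

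Of 227 listed or ranked genes, 111 were called in the joint comparison. None reversed in the alternatives that tested it, and thinning left 31 of the 227 and leaving out members with *Neurod* UMIs 9 without a test. DESeq2 size factors changed no call, the Wald test lost 22, thinning 14 of those still tested, leaving out members with *Neurod2* or *Neurod6* UMIs 9 and leaving out doublets 7. In the split, 39 of 159 were called, and 5 calls were lost when 1 UMI sufficed for a side. With the embryo as a block no call of these genes was lost, and 25 were gained in the split and 11 in the joint comparison. Leaving out 1 embryo gave values without a test, as no residual degrees of freedom remained, and each called gene kept its sign.

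The main limits were 2 embryos, 1 library each, few cells and a dissection whose border beside the cortex is not known. The split rests on 27 and 44 striatal-gene members. At this depth a lack of UMIs in a single member does not show a lack of expression, and RNA of other cells in the suspension was not removed.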

Other observations

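Barcodes that met the rule of the LGE-type cells except for the limit on *Mki67* and *Top2a* numbered 55 in embryo 4 and 92 in embryo 5, with median depths of 11694 and 9495.5 UMIs. They were looked at after the values were seen, and no test was made. *Gsx2*, a homeodomain factor of LGE progenitors, stood at 56.2 and 39.3 CPM in them and at 5.86 and 3.18 CPM in members. *Foxp2* stood at 608 and 848 CPM against 1408 and 1956 CPM. *Erbb4* stood at 501 and 755 CPM against 2267 and 2889 CPM, and the GABA transporter *Slc32a1* at 14.4 and 16.2 CPM against 69.5 and 50.9 CPM. *Dnmt1* stood at 115 and 131 CPM against 56.1 and 43.9 CPM. In each embryo the cells past the cycling limit had the greater values of *Gsx2* and *Dnmt1*, and members those of *Foxp2*, *Erbb4* and *Slc32a1*.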
